A study of Rattus norvegicus with 6 samples.

Results

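The keratin genes were described in magnetically sorted blood endothelial cells of rat skin. A gene counted as a keratin when its symbol in the platform's probe annotation was Krt followed by a number and at most 1 letter, which leaves out the keratin-associated proteins. This gave 39 genes, each with 1 probeset, of 15037 named genes on the arrays, and 20 of the 39 passed the filter on dim genes. The study held 3 Il33 knockout rats (28 and 27, female, and 52, male) and 3 wildtype rats (34 and 45, female, and 37, male), all Sprague-Dawley. All 6 animals were handled alike: abdominal skin (stated weight 2 to 2.5 g) was digested for 2 h at 37 °C with Collagenase I and DNAseI, cells bearing CD45 (leukocytes) and Lyve-1 (lymphatic endothelium) were removed, and cells bearing CD31 were retained. Neither the animals' age nor the nature of the Il33 deletion is given in the sources used here. Each array came from 1 rat, so the spread within a genotype is the spread between animals.

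Keratins are the intermediate filament proteins of epithelial cells. Each filament is built from pairs of an acidic type I and a basic type II keratin, and the pair changes with the kind of epithelium and with its layer. In skin, the dividing basal layer and the outer root sheath of the hair follicle make one set, the suprabasal layers another, and the inner root sheath and the hair shaft have sets of their own, whereas simple epithelia use yet others. Endothelial cells build their filaments mainly from vimentin. Of the 39 keratins, 19 are type I and 20 type II. In RefSeq (assembly GRCr8) the type II genes lie in a cluster on chromosome 7 and the type I genes in one on chromosome 10, apart from Krt18, a type I gene at the edge of the type II cluster. Well-known skin keratins such as Krt5, Krt10, Krt6a and Krt16 were not analysed here.

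Values are log2 expression per probeset, as deposited. Array medians over all probesets were 4.63 to 4.78. The highest of the 23 background probesets on an array, which match no rat gene, was 5.36 to 5.87, and "above background" means above that value on the same array. All 10 blood endothelial markers examined, among them Plvap, Cdh5, Eng and Pecam1 (CD31), were above background on every array, with list means of 15.10 to 15.66. Il33 itself was 8.07 to 9.82 in the knockout and 13.86 to 16.60 in the wildtype. Vimentin (Vim) was 19.70 to 19.93 and gave the highest signal of each array.

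Only 4 of the 39 keratins were above background on all 6 arrays: Krt15, Krt14, Krt1 and Krt17, keratins of the basal layer, the suprabasal layers and the outer root sheath. A further 9 were above background on some arrays, and 26 on none. The 1153 other probesets named as negative controls give a far higher limit, with a 95th percentile of 8.35 to 9.41; above that limit on all arrays were 2 keratins, Krt15 and Krt1, and on some arrays 2, Krt14 and Krt17. Wildtype 34 had 12 keratins above background and wildtype 45 had 10. Wildtype 37, knockout 28 and knockout 27 had 7 each, and knockout 52 had 6. All 19 keratins below the filter stayed between 2.22 and 4.64. The arrays thus held signal for keratins of stratified skin epithelium, most of it in a few genes, while most of the family gave none that could be told from background.

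**Figure D1:**
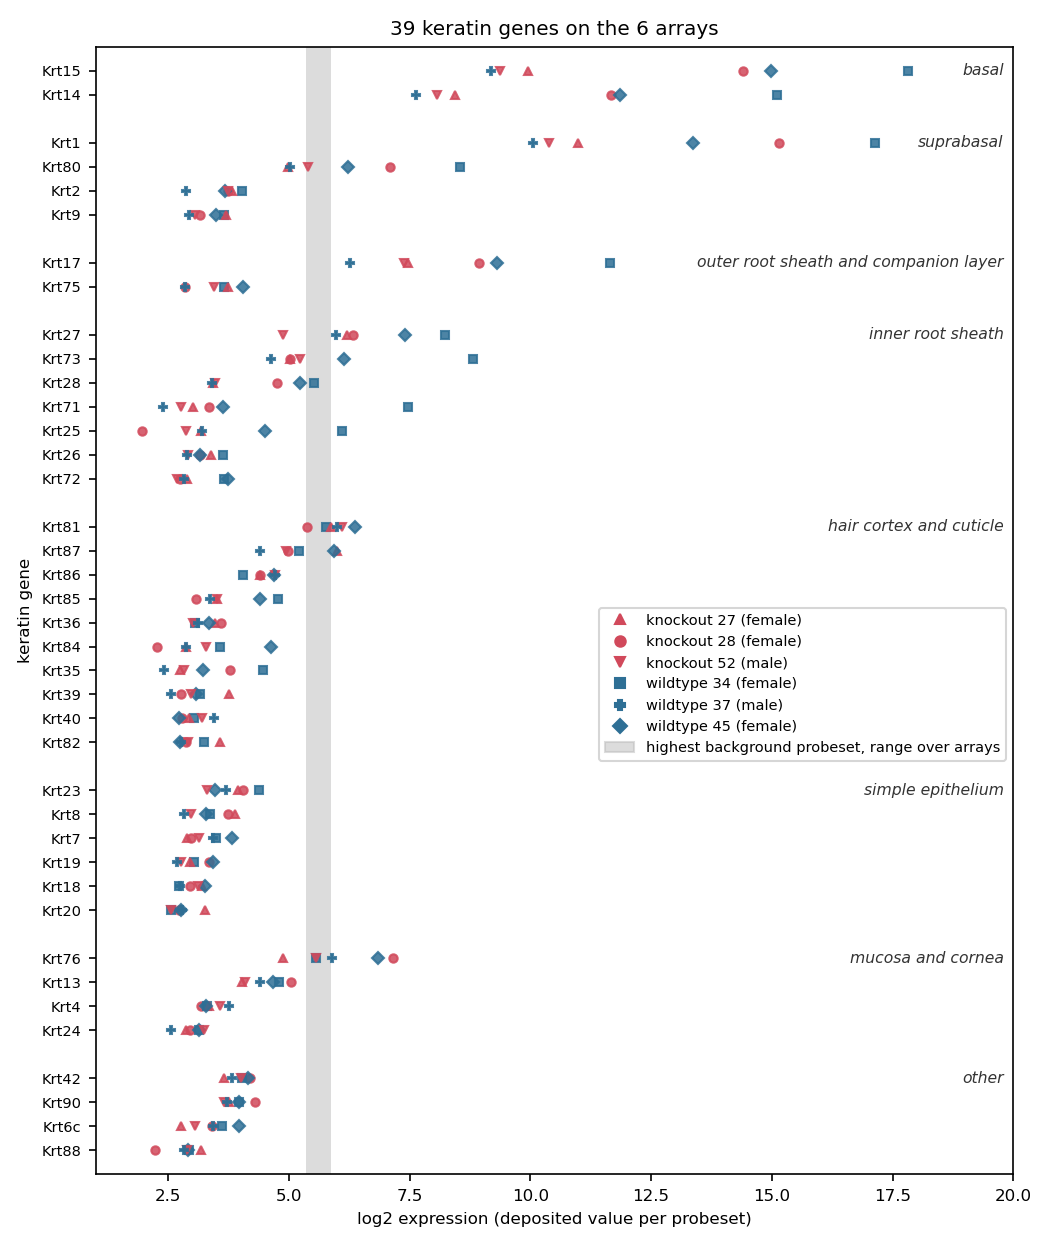
Log2 expression of the 39 keratins (x axis) by gene and class (y axis); each symbol is 1 array, red for knockout and blue for wildtype, and the grey band is the range over arrays of the highest background probeset, 5.36 to 5.87. Krt15, Krt14, Krt1 and Krt17 lie above the band on all arrays, with wildtype 34 highest, and all 6 simple epithelial keratins lie below it.

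The basal keratins had strong signal that varied more between animals than between genotypes. Krt15, a type I keratin of basal cells and of the follicle bulge, was 14.40, 9.95 and 9.37 in knockout rats 28, 27 and 52 against 17.82, 14.98 and 9.18 in wildtype rats 34, 45 and 37. Knockout 28 and wildtype 34 and 45 were high and the other 3 arrays low, so the genotypes overlapped. Krt14, the type I partner of Krt5 in basal cells, was 11.66, 8.44 and 8.07 in knockout rats 28, 27 and 52 against 15.11, 11.86 and 7.63 in wildtype rats 34, 45 and 37. The same 3 arrays were high, and the genotypes again overlapped. Krt15 had a mean of 11.24 ± 2.75 over the knockout animals and of 13.99 ± 4.40 over the wildtype animals (SD, n = 3 each), a difference of -2.75 (SE 1.96, 95% interval -7.15 to 1.65; limma adjusted p = 0.999). For Krt14 the means were 9.39 ± 1.97 and 11.53 ± 3.75, and the difference was -2.14 (SE 1.61, 95% interval -5.75 to 1.47; limma adjusted p = 0.999). Without wildtype 34 these differences were -0.84 and -0.36, and without wildtype 37 they were -5.16 and -4.10. In tissue of mixed cells a lower signal can come from fewer cells of a type or from less RNA per cell, and these arrays cannot tell them apart.

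Suprabasal keratins were divided: Krt1 was bright, Krt80 intermediate, and Krt2 and Krt9 were not above background on any array. Krt1, the type II keratin made when cells leave the basal layer, was 15.15, 10.98 and 10.38 in knockout rats 28, 27 and 52 against 17.14, 13.37 and 10.06 in wildtype rats 34, 45 and 37. Here knockout 28 lay above wildtype 45, and the 3 low arrays were the same as for the basal keratins. The group means were 12.17 ± 2.60 in the knockout and 13.52 ± 3.54 in the wildtype, with a difference of -1.35 (SE 1.67, 95% interval -5.09 to 2.39; limma adjusted p = 0.999), which became 0.46 without wildtype 34 and -3.09 without wildtype 37. Krt80, a type II keratin of upper layers and of other differentiating epithelia, was 7.09, 4.99 and 5.40 in the knockout animals (28, 27 and 52) and 8.54, 6.22 and 5.02 in the wildtype animals (34, 45 and 37). It was above background on the arrays of 28, 34 and 45 alone and differed by -0.77 (SE 0.84; limma adjusted p = 0.999), or by 0.21 without wildtype 34. Krt2, a type II keratin of the uppermost living layers, was 3.73 to 3.82 in the knockout and 2.88 to 4.04 in the wildtype, and Krt9, the keratin of palm and sole, 3.06 to 3.69 and 2.94 to 3.66. Of the 4 suprabasal keratins measured, out of 7 listed, only Krt1 and Krt80 were thus above background on any array. The signal of the others, such as Krt10, is not known here.

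Krt17, a type I keratin of the outer root sheath and of activated keratinocytes, was 8.93, 7.47 and 7.39 in knockout rats 28, 27 and 52 against 11.65, 9.30 and 6.26 in wildtype rats 34, 45 and 37. Both the highest and the lowest value were in wildtype animals, and the knockout values lay between them. Its difference was -1.14 (SE 1.10, 95% interval -3.61 to 1.33; limma adjusted p = 0.999) and 0.15 without wildtype 34. Krt75, a keratin of the companion layer between outer and inner sheath, was at 2.84 to 3.75 in the knockout and 2.84 to 4.05 in the wildtype, with no array above background.

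The inner root sheath, which moulds the growing hair, has a set of type I (Krt25, Krt26, Krt27 and Krt28) and type II keratins (Krt71, Krt72 and Krt73). Of the 7, 5 passed the filter, and 0 of these passed the test. Krt25 and Krt71 passed the filter only through wildtype arrays, so how many of the 5 are higher in the wildtype supports nothing. To show this set, which the arrays held in part, the 100 bases before their annotated starts are shown, from RefSeq (GRCr8), 5′ to 3′ on the strand of the gene, with TATAAA, the core of a TATA box, in capitals:
Krt25, chr10:84771198-84771297, minus strand: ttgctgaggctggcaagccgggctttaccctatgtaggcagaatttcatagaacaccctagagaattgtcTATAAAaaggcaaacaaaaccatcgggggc
Krt27, chr10:84800132-84800231, minus strand: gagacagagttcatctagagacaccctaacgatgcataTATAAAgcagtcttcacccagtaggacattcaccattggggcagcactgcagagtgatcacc
Krt28, chr10:84824858-84824957, minus strand: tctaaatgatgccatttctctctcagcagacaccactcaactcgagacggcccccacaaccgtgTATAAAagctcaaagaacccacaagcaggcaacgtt
Krt71, chr7:134761034-134761133, minus strand: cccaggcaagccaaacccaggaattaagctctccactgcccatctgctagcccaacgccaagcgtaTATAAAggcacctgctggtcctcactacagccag
Krt73, chr7:134815029-134815128, minus strand: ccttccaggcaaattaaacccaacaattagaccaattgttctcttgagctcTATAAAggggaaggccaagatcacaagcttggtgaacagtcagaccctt

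The motif begins 30 bases before the annotated start in Krt25, 34 in Krt71, 36 in Krt28, 49 in Krt73 and 62 in Krt27. A search for TATAAA on both strands of the 250 bases before the start found it in 7 of 7 inner root sheath keratins, in 8 of the 22 other keratins with an entry, and in 12.9% of all 33469 promoters. On the gene's own strand within 100 bases of the start it was in 6 of 7, in 5 of 22 and in 3.86% of all. The motif was chosen with these sequences in view, and a match is a description of letters, not of binding.

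Krt25 was 1.96, 3.18 and 2.88 in knockout rats 28, 27 and 52 against 6.10, 4.50 and 3.20 in wildtype rats 34, 45 and 37. Wildtype 34 alone was above background. The genotypes did not overlap, but the values that part them, 3.18 and 3.20, are both below background, where values carry no order. The means were 2.67 ± 0.64 and 4.60 ± 1.45 (SD, n = 3 each), a difference of -1.93 (SE 0.66, 95% interval -3.41 to -0.44; limma adjusted p = 0.999). Krt27 was 6.32, 6.20 and 4.88 in the knockout (28, 27 and 52) and 8.23, 7.40 and 5.98 in the wildtype (34, 45 and 37). Wildtype 34 and 45 were highest and knockout 52 lowest, while wildtype 37 lay below knockout 28 and 27. It differed by -1.40 (SE 0.60, 95% interval -2.74 to -0.06; limma adjusted p = 0.999).

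Without wildtype 34 these differences were -1.18 for Krt25 and -0.89 for Krt27. Krt73 was 5.02, 5.02 and 5.24 in knockout rats 28, 27 and 52 against 8.81, 6.15 and 4.62 in wildtype rats 34, 45 and 37, above background in wildtype 34 and 45 alone. Krt71 was 3.34, 3.02 and 2.76 in the knockout animals and 7.46, 3.64 and 2.40 in the wildtype animals in the same order, above background in wildtype 34 alone. Their differences were -1.43 (SE 0.85) and -1.46 (SE 1.03), both with a limma adjusted p of 0.999, and became -0.29 and 0.020 without wildtype 34. Krt28 was 4.76, 3.43 and 3.48 against 5.52, 5.24 and 3.40, above background in wildtype 34 alone, with a difference of -0.83 (SE 0.59; limma adjusted p = 0.999) that was -0.43 without wildtype 34 and -1.49 without wildtype 37. Krt26 and Krt72 did not pass the filter and stayed between 2.69 and 3.74.

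Hair shaft keratins gave little signal. Of the 10 measured keratins of the hair cortex and cuticle, 8 were above background on no array. The exceptions were Krt81, above background on 5 arrays, and Krt87, on 2. Krt81 was 5.37, 5.87 and 6.09 in knockout rats 28, 27 and 52 against 5.76, 6.37 and 5.99 in wildtype rats 34, 45 and 37, so it did not follow the animals with high Krt15. It differed by -0.26 (SE 0.35; limma adjusted p = 0.999), and by -0.06 without knockout 28. Krt81, Krt83 and Krt86 are close in sequence, and whether the Krt81 and Krt86 probes separate them could not be examined. Krt85, a cuticle keratin, was 3.08 to 3.51 in the knockout and 3.37 to 4.78 in the wildtype, below background throughout, with a difference of -0.82 (SE 0.41; limma adjusted p = 0.999), or -0.52 without wildtype 34. Of 16 keratin-associated proteins, which cross-link hair keratins, 13 were above background on no array and 1 on all.

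Keratins of simple epithelia were not above background in any animal. Krt8 and Krt18, the pair of single-layered epithelia, were 2.83 to 3.89 and 2.73 to 3.26. Krt7 was 2.89 to 3.83, Krt19 was 2.69 to 3.42, Krt20, a keratin of gut lining and Merkel cells, 2.56 to 3.27, and Krt23 was 3.30 to 4.39. Krt7 was lower in all 3 knockout arrays (2.98, 2.89 and 3.14 against 3.49, 3.83 and 3.42), but all its values were below background, where they carry no order, and it lay below the filter and was not tested. The same holds for Krt6c (3.41, 2.77 and 3.06 against 3.62, 3.96 and 3.43).

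Among keratins of mucosa and cornea, Krt76 alone was above background, on 5 arrays, at 7.15, 4.88 and 5.56 in knockout rats 28, 27 and 52 against 5.57, 6.84 and 5.90 in wildtype rats 34, 45 and 37. This keratin of the hard palate was highest in knockout 28, unlike the keratins of basal cells, and differed by -0.24 (SE 0.58; limma adjusted p = 0.999). Krt13 (4.04 to 5.04), Krt4 and Krt24 were below background. So were Krt42, Krt90 and Krt88, which were put in no class, and Krt6c. The probeset of Krt6c carries chromosome 1 in its name whereas RefSeq puts the gene on chromosome 7, so its 2.77 to 3.96 may not describe that gene.

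Between knockout and wildtype, 0 of the 20 keratins tested passed limma at an adjusted p of 0.05, with a smallest adjusted p of 0.999. Over all 11515 genes tested 1 passed (0.00868%), Il33. At an unadjusted p under 0.05 there were 2 keratins, Krt25 and Krt27, and 227 genes in all. Of the 20, 16 were lower on average in the knockout, and the median difference was -0.79, against 0.037 over all genes tested, of which 45.9% were lower. Krt25, Krt71 and Krt85 passed the filter only through their wildtype values: without a filter 28 of 39 keratins were lower, with a median of -0.17, against 0.02 over all genes. Knockout arrays were all below wildtype arrays for 1 keratin of 20 (5.0%) and for 2.89% of all genes tested, and all above for 0 keratins and for 3.36% of all genes; that 1 keratin is Krt25, whose order rests on values below background. The median keratin difference was -0.18 without wildtype 34, with 12 of 20 lower, and -1.36 without wildtype 37, with 19 of 20 lower. It was -0.47 without knockout 27 and -0.51 without knockout 52. The intervals of single keratins are wide: that of Krt15 runs from a knockout lower by 7.15 to one higher by 1.65, so neither a large difference nor its absence was shown.

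**Figure D2:**
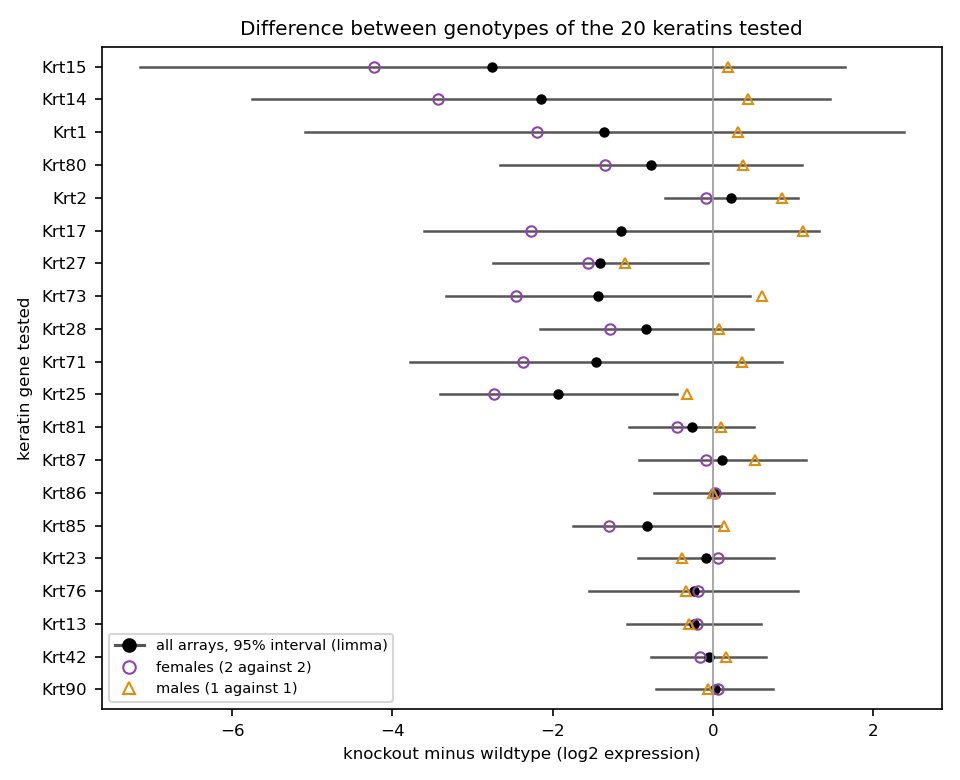
Knockout minus wildtype in log2 expression (x axis) for the 20 keratins tested (y axis); black points with bars are the limma difference over 6 arrays with its 95% interval, purple circles the females and orange triangles the male pair. The bars of Krt25 and Krt27 leave out 0 before adjustment. For Krt15, Krt14, Krt1, Krt17 and Krt73, and for further keratins such as Krt71 and Krt80, the male pair lies on the other side of 0 from the females. The male value is 1 rat against 1.

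The bright keratins had some of the largest spreads between animals of a genotype, and the family as a whole did not. Taking the SD around the genotype means, Krt15 ranked 1st of the 11515 genes tested (SD 3.67), Krt1 5th (3.11) and Krt14 6th (2.997). Krt15 also had the widest range over the 6 arrays, 8.64 on the log2 scale. Krt17 ranked 35th (2.01) and Krt71 49th (1.88), so 5 of the 20 keratins were among the 100 genes of largest SD. At the other end Krt42 (0.224), Krt90 (0.263) and Krt86 (0.30) varied least, all below background. The median SD was 0.96 over the keratins tested and 0.471 over all genes tested, with 13 of the 20 above the latter and 7 below. Without a filter the medians were 0.42 over the 39 keratins and 0.435 over all genes.

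**Figure D3:**
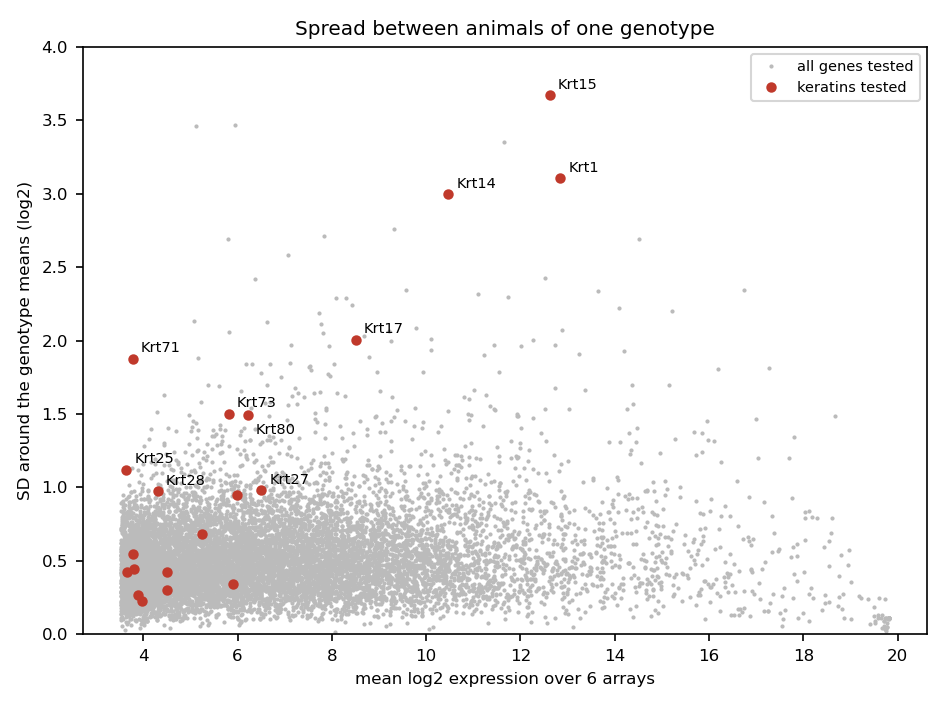
SD around the genotype means (y axis, log2) against mean log2 expression over 6 arrays (x axis) for the 11515 genes tested (grey) and the 20 keratins tested (red). Krt15, Krt1 and Krt14 lie at the top of the plot, with SDs of 3.67, 3.11 and 2.997, while Krt42, Krt90 and Krt86 lie low in the grey cloud, with SDs of 0.224 to 0.30.

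In the bright keratins the spread had a direction. Wildtype 34 was the highest array for 13 of the 20 keratins tested (65.0%), against 16.3% of all genes tested. Among these keratins, Krt25, Krt71 and Krt85 passed the filter only through their wildtype values, so their part in the count supports nothing. Krt85, Krt23 and Krt2 were above background on no array, where values carry no order. Wildtype 37 was the lowest for 9 of 20 (45%), against 10.6% of all genes. For Krt87, Krt73, Krt28, Krt71 and Krt2 among the 9, its value was below background, where values carry no order. Rats 34 and 37 are both wildtype animals, and for Krt15, Krt14, Krt1 and Krt17 both extremes lay within that genotype. This did not hold for all keratins: Krt27 was lowest in knockout 52. Krt25 was lowest in knockout 28 and Krt80 in knockout 27, but among values below background.

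Both male arrays were low in keratins. Krt15 averaged 9.28 in the males and 14.29 in the females, a difference of -5.01 beside genotype (SE 1.32; limma adjusted p = 0.138). Krt14 differed by -3.92 (SE 1.16; adjusted p = 0.154), Krt1 by -3.94 (SE 1.24; adjusted p = 0.165) and Krt27 by -1.61 (SE 0.35; adjusted p = 0.116), all by limma. Of the 20 keratins 18 were lower in the males, against 4394 of all 11515 genes tested. Among them Krt71, Krt25, Krt2, Krt28, Krt85 and Krt23 passed the filter only through the females. Their part in this count, and that of Krt28 in the next, supports nothing. An unadjusted p under 0.05 (limma) was found for 6 of the 20 keratins and for 2148 of the 11515 genes. Of the keratins 0 passed, where 3 of 11515 genes (0.0261%) passed. Krt15 passed on leaving out knockout 27 (difference -6.28, limma adjusted p = 0.0249), the female with low keratins, and with array weights 4 keratins passed. The difference between genotypes had, over the keratins, a median of -1.29 among females, and for the 2 males it was 0.155. Over all genes tested these medians were 0.045 and 0.01. In the females 17 of 20 keratins were lower in the knockout and in the males 6 of 20. With females alone (2 against 2), 9 of the 20 keratins and 620 of 11515 genes had an unadjusted p under 0.05 (limma), and 0 genes were called. Krt25, Krt71 and Krt85 passed the filter only through their wildtype values, so any part of theirs in these genotype counts and medians supports nothing. The interaction of genotype and sex, with 1 male per genotype, was called for 0 keratins and for 0 of all genes (0%), the smallest keratin adjusted p being 0.999 (limma). At an unadjusted p under 0.05 it had 2 keratins, Krt17 and Krt73, and 119 genes.

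Spike-in controls, 4 added before labelling and 4 at hybridisation, were high and low on the same arrays as the brightest keratins. The mean of the 8 spike-in probesets was 10.42, 10.26 and 10.12 on arrays 34, 28 and 45 and 9.33, 8.91 and 8.82 on arrays 27, 37 and 52. These are the arrays of high and of low Krt15, Krt14, Krt1 and Krt17. For 11 of the 20 keratins tested (55.0%) all 3 arrays of high spike-in signal lay above all 3 of low signal, against 7.33% of all genes tested. Of these 11, Krt13, Krt42 and Krt90 were above background on no array, where values carry no order. Krt71 and Krt28 passed the filter only through the arrays of high signal, so their part in the count supports nothing. Both males are on the low side, and knockout 27 is the only female there. Without knockout 27, where Krt15 passed between the sexes, sex and spike-in side coincide and cannot be told apart. Among the arrays of high signal (knockout 28 against wildtype 34 and 45) Krt15 differed by -2.00 and Krt1 by -0.11. Among those of low signal (knockout 27 and 52 against wildtype 37) Krt15 differed by 0.48 and Krt1 by 0.62. The keratins' median difference was -0.60 on the high side and 0.098 on the low side. With the side as a block it was -0.13, with 0 keratins called (limma). At an unadjusted p under 0.05 the block left 1 of 20 keratins and 320 of 11515 genes. Whether the spike-in signal had a part in the keratin values was not tested.

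Other genes of the epidermis showed the same arrays as high and low. Of 35 measured genes in 4 lists (adhesion, cornified envelope, transcription factors and hair follicle genes other than keratins), 29 were tested and 0 were called by limma. An unadjusted p under 0.05 was found for 1 (Msx2), and for 227 of all 11515 genes. Msx2 stayed between 3.63 and 4.72, below background on every array, where values carry no order. In the knockout 26 of the 29 were lower on average (45.9% of all genes tested), with a median of -0.75. Ovol1 and Dlx3 passed the filter only through their wildtype values, so their part in this count supports nothing. Wildtype 34 was highest for 21 of the 29 (16.3% of all genes tested), and for 19 the arrays of high spike-in signal lay above the others (7.33% of all genes tested). Ovol1 and Foxn1 among the 21, and Foxn1 and Dlx3 among the 19, were above background on no array, where values carry no order. Perp, a desmosomal protein, was 11.56, 9.16 and 9.55 in knockout rats 28, 27 and 52 against 15.26, 11.80 and 9.26 in wildtype rats 34, 45 and 37. Tp63, the transcription factor of stratified epithelia, was 7.71, 5.37 and 5.50 against 9.85, 7.45 and 5.66. Both of these were thus high on the arrays with high Krt15. Ovol1, another epithelial transcription factor, stayed between 2.90 and 4.90, below background. Jup and Itgb4, adhesion genes that endothelium also makes, were above background throughout, and Itgb4 was lowest in knockout 28 (12.19). Of the barrier genes Sbsn (5.31 to 10.79), Lgals7 (6.31 to 10.39) and Calml3 (4.37 to 9.29) had the highest means, each with its highest value in wildtype 34. Of the 12 measured in that list 1 was above background on all arrays, 5 on some and 6 on none. The hair follicle list was dim: S100a3 reached 6.90 and Lef1 5.86 in wildtype 34, and 6 of its 8 measured genes were above background on no array.

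Markers of other cells were examined beside the keratins. Fibroblast markers (6 of 6 measured, 4 above background on all arrays) had summed signals, as log2, of 12.43 to 14.78 in the knockout and 12.51 to 16.76 in the wildtype, and their 3 genes of highest mean did not move alike. All 6 markers were highest in wildtype 34 (16.3% of all genes tested). For 4 of the 6, though not for Dcn or Col1a2, the arrays of high spike-in signal all lay above the others (7.33% of all genes tested). In knockout 28 Dcn was high (14.47, against 9.06 to 10.75 on the 4 arrays other than 28 and 34). Col3a1 was 11.57 there, close to wildtype 45 at 11.58, and Col1a2 was the lowest of all arrays at 10.18. Leukocyte markers (5 of 5 measured) summed to 10.39 to 11.35 and 10.32 to 11.30, with Lcp1 at 9.29 to 10.44, Cd68 at 8.85 to 10.72 and Ptprc (CD45) at 4.59 to 5.80 in the knockout and 3.99 to 7.72 in the wildtype. Lymphatic markers (Lyve1, Prox1 and Flt4, all measured) summed to 8.06 to 9.02 and 6.46 to 9.05. The 3 measured melanocyte markers, Tyrp1, Mlana and Tyr, were above background on no array. Blood endothelial genes had summed signals of 21.19 to 21.28 in the knockout and 21.07 to 21.26 in the wildtype, sums that rest on probes such as Plvap and Cdh5 near the top of the scale and so cannot show composition; Esam in the same list ranged from 12.86 to 15.23. The part of other cells in the keratin values was not tested. Among 8 other intermediate filament genes the arrays of high spike-in signal were all above the others for 0 and all below for 4 (Vim, Des, Synm and Lmna), where 7.33% and 17.3% of all genes tested were. Vim is the highest probe of each array, so its order may not be one of level. Des was 11.07 to 11.95 on the high side and 12.87 to 14.38 on the low side, and Lmna was 13.00 to 13.31 and 13.65 to 14.52.

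**Figure D4:**
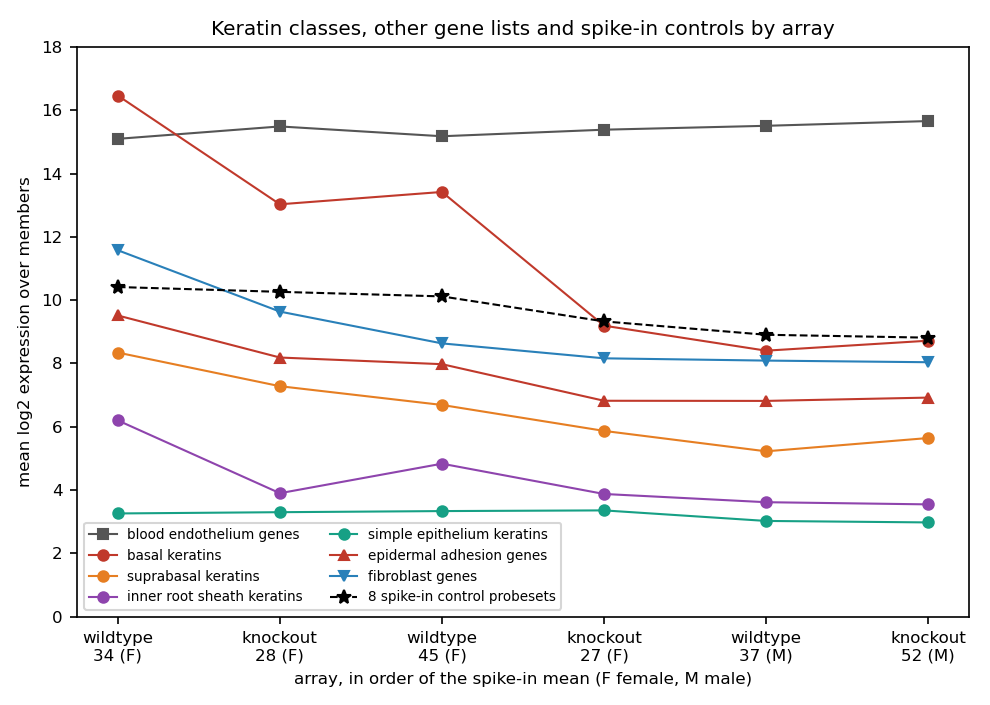
Mean log2 expression over the members of keratin classes and other gene lists (y axis) on the 6 arrays (x axis), ordered by the mean of the 8 spike-in controls (stars); lines only guide the eye. Basal keratins average 16.46, 13.03 and 13.42 on arrays 34, 28 and 45 and 8.40 to 9.20 on the others, simple epithelial keratins 2.98 to 3.36 and blood endothelial genes 15.10 to 15.66 on all.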

How the data were processed

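Labelled DNA from 100 ng of total RNA per rat was hybridised to 6 Affymetrix arrays. The values are read as log2 expression: per the submitters' processing notes the authors applied RMA, in Affymetrix Expression Console. The unit rests on that entry and the range, since the highest values, 19.93, are unusual for it. The sources used here give no version, probeset library or build. Genes whose mean lay below the 25th percentile over all probesets (3.52) were not tested; a gene high in 1 animal can pass this filter. Genotypes were compared over the 11515 other genes in limma 3.58.1 (R 4.3.3; lmFit and eBayes, two-sided, Benjamini-Hochberg, threshold 0.05) with genotype alone, then with sex beside it and with their interaction. The script was tested on simulated data. The arrays' number limits the precision: the median SE was 0.587 for keratins and 0.387 for all genes tested. Named were all basal and suprabasal keratins, the 3 of highest mean per other class or list, and those of smallest p, of largest or smallest SD or without overlap. Krt71, Krt26, Krt72, Krt18, Krt19, Krt20, Krt24, Krt88, Pecam1, Esam and Synm were added after their values were seen. Members, lists and tests were chosen with earlier results of these data known. Alternatives were other filters, normalizations, probeset rules, designs and moderation, each array left out and, chosen after seeing the data, spike-in signal as a block. RefSeq promoters (GRCr8) were found for 29 of the 39 keratins; of those tested, Krt1, Krt13, Krt14, Krt15, Krt17, Krt80, Krt81 and Krt86 had no entry in the table.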

Additional observations from a re-analysis of the deposited data

How the results depend on the processing

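Under 17 alternatives 0 keratins were called between genotypes by limma; the lowest keratin adjusted p, 0.501, came without wildtype 37, where 10 keratins had an unadjusted p under 0.05. The epidermal genes other than keratins gave 0 calls in the same settings, and the interaction 0 in each of the 9 settings run for it. The median keratin difference was below 0 throughout, from -1.36 to -0.18 on leaving out 1 array, -0.17 without a filter, -1.25 with the filter at the 50th percentile (10 keratins), -1.29 in females and -0.13 with spike-in signal as a block. The median SD was 0.68 to 1.01 without 1 array, 0.42 without a filter and 1.50 at the stricter filter. Keratins called between the sexes were 0 to 1 without 1 array and 4 with array weights (Krt1, Krt14, Krt15 and Krt27), a setting whose cause was not tested; with spike-in signal as a block the smallest adjusted p was 0.822. Of the 20 keratins 9 kept their sign under all alternatives run and 11 did not, none of them called. The sign changed with spike-in signal as a block for Krt1 (0.26), Krt23 (0.030), Krt42 (0.055), Krt76 (0.13) and Krt86 (-0.068), in females for Krt2 (-0.085), Krt23 (0.070) and Krt87 (-0.085), and with array weights for Krt90 (-0.056). On leaving out 1 array Krt1 ranged from -3.09 to 0.46, Krt17 from -2.55 to 0.15, Krt71 from -2.51 to 0.020, Krt80 from -1.55 to 0.21, Krt76 from -0.88 to 0.25, Krt2 from -0.097 to 0.48, Krt23 from -0.27 to 0.19, Krt42 from -0.17 to 0.097, Krt86 from -0.20 to 0.13, Krt87 from -0.27 to 0.49 and Krt90 from -0.17 to 0.15. No paired analysis was possible because the animals of the genotypes carry different numbers. Values below the background probesets carry no order.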

Other observations

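The genes whose values over the 6 arrays were most like the mean of Krt14 and Krt15, of 11495 genes tested that are no keratins, were Dnase1 (Pearson's r = 0.998), Serpinb2 (0.994), Cldn1 (0.992), Man2a1 (0.990) and Trim29 (0.989); r served only to choose them, and no p is given. Trim29, a gene of stratified epithelia, was 8.90, 5.48 and 6.15 in knockout rats 28, 27 and 52 against 12.10, 9.05 and 5.34 in wildtype rats 34, 45 and 37. Cldn1, a tight junction protein of the epidermis, was 7.40, 5.56 and 5.18 against 9.25, 7.32 and 5.45, and Serpinb2, an inhibitor of plasminogen activators that keratinocytes make, 7.54, 6.18 and 6.01 against 9.29, 7.77 and 5.55. Dnase1 stayed between 3.26 and 4.20, below background on every array. Since they were chosen for likeness to Krt14 and Krt15, that they share the high and low arrays of these is no result.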
